A study of Rattus norvegicus with 12 samples.

Results

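The genes described here encode secreted proteins of the airway lining and mucus: the secretoglobins Scgb1a1, Scgb3a1 and Scgb3a2, the BPI fold proteins Bpifa1 and Bpifb1, the mucins Muc5ac, Muc5b and Muc1, the trefoil peptide Tff2, and Agr2, which helps mucins to fold. They were chosen with earlier results of these data known. Their probes were then taken from the rat lung arrays by the RefSeq accession that the scanner files give for each probe. The most intense detected probe of a gene was kept. Of these 10 genes, 7 had a probe by this rule and 6 of them were detected and tested, out of 11331 genes with a detected probe. Lungs of male Sprague-Dawley rats aged 8 to 12 weeks were compared in 4 groups of 3 rats. The control group breathed air and was given saline. The CS + LPS group was exposed to cigarette smoke (CS) up to day 30 and had lipopolysaccharide (LPS), a bacterial cell wall product, instilled into the trachea on days 5 and 19, as a model of chronic obstructive pulmonary disease. The CS + LPS + NaHS group had the same exposure and injections of NaHS, a salt that releases hydrogen sulfide (H2S). The CS + LPS + PPG group had the same exposure and injections of PPG (propargylglycine), which inhibits CTH, an enzyme that makes H2S. Neither agent was given without CS and LPS, so their effects in unexposed lungs were not measured. Tissue was collected 24 h after smoke was last given, and RNA came from whole tissue of the left upper lobe, so that more cells of a type and more RNA per cell cannot be told apart.

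The airway surface of the rat is covered by ciliated cells and by secretory cells, most of which are club cells in the bronchioles. Club cells release secretoglobins in large amounts, and the upper airways and glands add BPI fold proteins, which bind lipids and bacterial products and lower surface tension. Smoke and bacterial products are known to turn some secretory cells into goblet cells, which store the gel-forming mucins Muc5ac and Muc5b and need Agr2 for their secretion.

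The stretches of genome just before the start sites are shown for 4 of these genes, because Scgb3a1 and Bpifa1 passed the test together, Bpifb1 is a neighbour of Bpifa1 on chromosome 3, and Scgb1a1 is the classical club cell gene and did not pass. Each run is the 250 bases before the RefSeq start site in the rat build GRCr8, written 5′ to 3′ on the gene's strand. Capitals mark matches, on either strand, to the TATA box letters TATAAA, to the forkhead factor letters TGTTTAC and their variant with the letters TATTTAC, to the core of NKX2-1 sites, the letters CTTGAG, or to the motif of STAT factors.
Scgb3a1, chr10:34468916-34469165, plus strand: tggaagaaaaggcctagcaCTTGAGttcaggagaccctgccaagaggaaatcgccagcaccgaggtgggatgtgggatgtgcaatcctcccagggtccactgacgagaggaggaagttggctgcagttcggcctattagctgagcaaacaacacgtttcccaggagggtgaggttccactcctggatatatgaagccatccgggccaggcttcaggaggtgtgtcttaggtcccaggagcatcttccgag
Bpifa1, chr3:163087715-163087964, plus strand: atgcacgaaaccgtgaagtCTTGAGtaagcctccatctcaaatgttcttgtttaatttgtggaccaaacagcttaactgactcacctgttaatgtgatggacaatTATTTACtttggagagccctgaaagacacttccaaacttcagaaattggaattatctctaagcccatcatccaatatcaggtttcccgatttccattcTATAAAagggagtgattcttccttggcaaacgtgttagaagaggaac
Bpifb1, chr3:163132901-163133150, plus strand: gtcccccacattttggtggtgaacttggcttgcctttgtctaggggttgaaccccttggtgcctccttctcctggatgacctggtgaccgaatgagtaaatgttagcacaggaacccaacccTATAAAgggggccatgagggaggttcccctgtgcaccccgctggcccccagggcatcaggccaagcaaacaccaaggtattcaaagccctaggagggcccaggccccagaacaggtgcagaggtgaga
Scgb1a1, chr1:215409687-215409936, minus strand: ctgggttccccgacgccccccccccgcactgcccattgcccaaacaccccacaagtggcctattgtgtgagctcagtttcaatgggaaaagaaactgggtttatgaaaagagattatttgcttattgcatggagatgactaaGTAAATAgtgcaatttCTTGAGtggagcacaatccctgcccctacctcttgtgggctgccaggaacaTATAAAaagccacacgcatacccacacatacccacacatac
The Scgb1a1 and Bpifa1 runs each held 3 matches, to the TATA box, the forkhead variant and the NKX2-1 core, with the TATA box beginning 41 bases before the start of Scgb1a1 and 47 bases before that of Bpifa1. Scgb3a1 held only CTTGAG, which began 231 bases before the start in both Scgb3a1 and Bpifa1. Bpifb1 held only TATAAA, 128 bases before its start. Over the same window of all 33469 rat promoters in the table, 12.9% held TATAAA, 13.3% held CTTGAG, 3.21% held TGTTTAC, 3.04% held TATTTAC and 6.25% held the STAT motif. Of the other members, Scgb3a2 held CTTGAG, Muc1 held TATAAA and Agr2 held none of these motifs. Muc5ac, Muc5b and Tff2 had no entry in the table. A match is a description of letters and no evidence that a factor binds there.

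Each rat had an array of its own, and values are log2 processed signals scaled to the 75th percentile of each array. Before scaling, that percentile ranged from 856 to 2222, an array had 66.0% to 75.5% of its probes well above background, with 0 saturated spots. Precision is limited by the 3 arrays a group. Of 30367 probes, 21239 were detected, that is, well above background on each of the 3 arrays of some group. The arrays lay on 2 slides. Slide 2 held control replicate 3 together with all CS + LPS arrays, and slide 1 held the 8 others. Control replicate 3 stood apart, correlating at 0.936 to 0.956 with each of the others over detected probes. Results that rest on it are given with and without it. Markers of lung cells were present, with 11 of 12 genes of alveolar type 2 cells, 8 of 9 of type 1 cells, 10 of 13 of club cells and 10 of 16 of ciliated cells detected. Of 10 markers of submucosal glands and salivary cells, 1 was detected.

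The secretory genes fell into 2 patterns. Scgb3a1 and Bpifa1 were higher in the CS + LPS + PPG group than in the control group, by 12.2-fold and 87.1-fold, and higher than in the CS + LPS group, by 4.16-fold and 73.0-fold. Scgb1a1, Scgb3a2, Bpifb1 and Agr2 differed by less than 2-fold in each of the 6 comparisons. To pass the test, group means had to differ 2-fold or more, with p under 0.05 before adjustment (two-sided, limma, a linear model over all detected probes). The thresholds are those of the study, whose own test was an unpaired t-test. By that test neither Scgb3a1 for NaHS against control nor Bpifa1 for NaHS against PPG passed. Benjamini-Hochberg adjusted p-values over all 21239 probes are given beside it, because for a single gene the exact permutation test of 3 rats against 3 cannot give a p below 0.1.

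**Figure D1:**
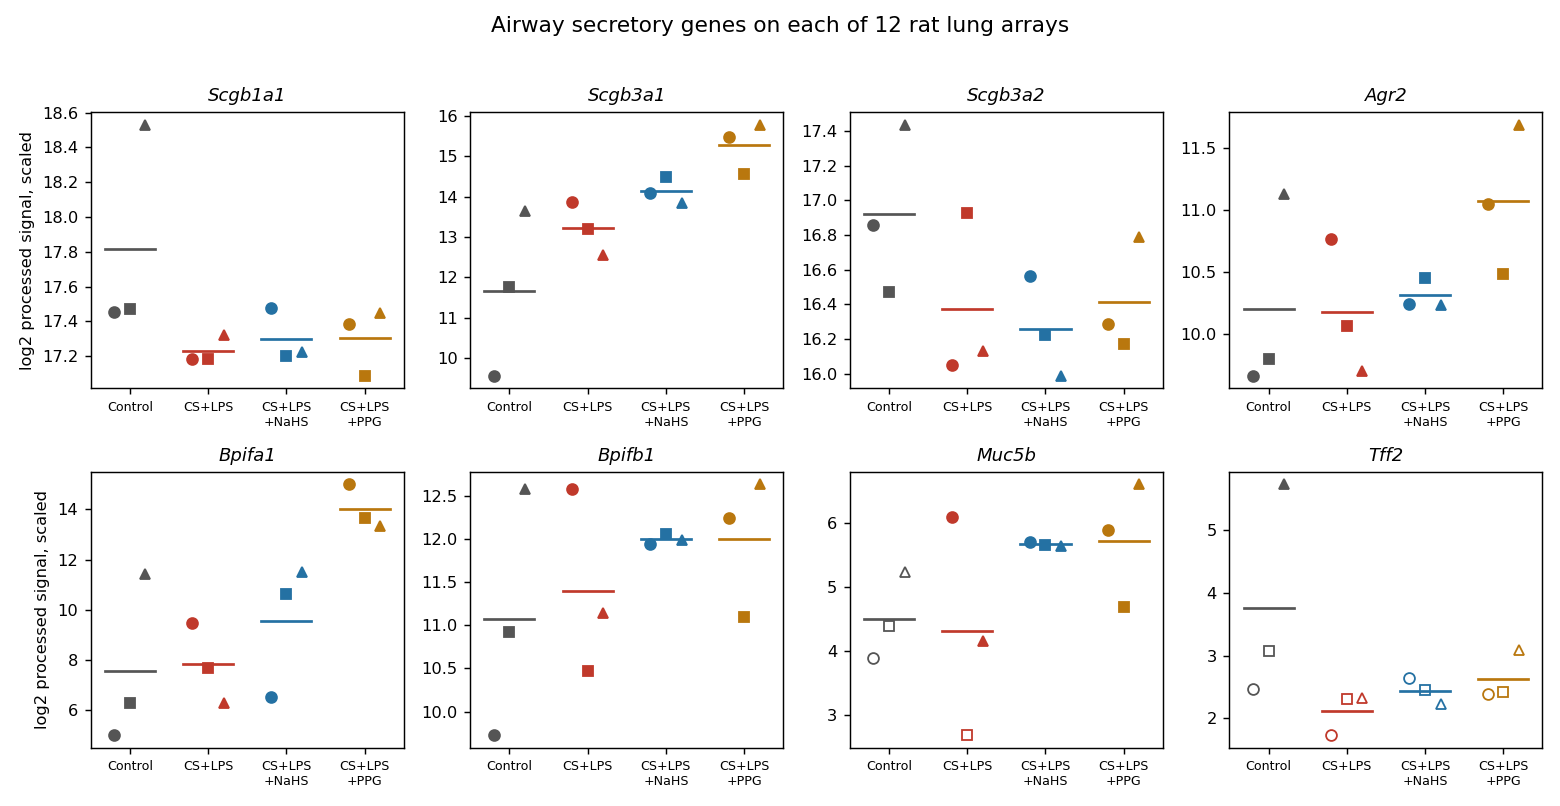
Log2 processed signal, scaled to each array's 75th percentile, of 8 secretory genes on 12 arrays, with 3 rats a group (circle, replicate 1; square, replicate 2; triangle, replicate 3) and the group mean as a bar. Open symbols are values not well above background, and each panel has its own vertical scale. Bpifa1 and Scgb3a1 lie above all control values on the 3 CS + LPS + PPG arrays, and control replicate 3 is the highest control for every gene shown.

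Scgb3a1, a secretoglobin of the larger airways also known as HIN-1 and studied as an inhibitor of cell growth, had signals of 9.57, 11.78 and 13.65 in the control group. They were 13.87, 13.21 and 12.56 in the CS + LPS group and 14.09, 14.48 and 13.85 in the CS + LPS + NaHS group. In the CS + LPS + PPG group they were 15.48, 14.55 and 15.79. The PPG arrays lay above all arrays of the other 3 groups, the NaHS arrays lay above all controls, and the CS + LPS arrays overlapped with control replicate 3.

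Compared with the control group, Scgb3a1 rose by 3.61 on the log2 scale with PPG (SE 0.80, adjusted p = 0.0397, limma) and by 2.48 with NaHS (SE 0.80, adjusted p = 0.196, limma). The difference of 1.55 for CS + LPS alone (SE 0.80, adjusted p = 0.243, limma) did not pass. Compared with the CS + LPS group, Scgb3a1 rose by 2.06 with PPG (SE 0.80, adjusted p = 0.396, limma), and the difference of 0.93 with NaHS did not pass (95% confidence interval -0.84 to 2.69). NaHS and PPG differed by -1.13 (95% confidence interval -2.89 to 0.63), although no array of the one group overlapped with the other. The controls themselves lay far apart, and leaving out 1 of them moved these values. Without control replicate 3, the differences from control were 2.54 with CS + LPS, which then passed, 3.47 with NaHS and 4.60 with PPG. Without control replicate 1, they were 0.50, 1.43 and 2.56, of which the last 2 passed.

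The rise of Scgb3a1 with PPG over the CS + LPS group passed in 8 of the 12 fits that each left out 1 array. It did not pass without CS + LPS replicate 2 (2.05) or 3 (1.73), or without PPG replicate 1 (1.95) or 3 (1.80). These groups lay on different slides that only control replicate 3 linked, and with slide as a block the difference was 5.03 (adjusted p = 0.00867, limma). With that block NaHS passed against CS + LPS too, at 3.90 (adjusted p = 0.0214, limma). Of all detected probes, 4120 (PPG) and 4224 (NaHS) then passed against CS + LPS, beside 435 and 361 without the block. The difference of Scgb3a1 between CS + LPS and control was -0.43 with the block, against 1.55 without it. The value with the block compares the CS + LPS arrays with control replicate 3 alone.

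Scgb1a1 encodes CC10 or CC16, the main protein of club cells. Its signals were 17.45, 17.47 and 18.53 in the control group and 17.18, 17.19 and 17.33 in the CS + LPS group. They were 17.48, 17.20 and 17.23 with NaHS and 17.39, 17.09 and 17.45 with PPG. All CS + LPS and all PPG arrays lay below the controls, by margins that were small except against control replicate 3. The difference of -0.59 between the CS + LPS and control groups (SE 0.25, adjusted p = 0.183, limma) was smaller than 2-fold and so did not pass. Without control replicate 3 it was -0.23 (adjusted p = 0.39, limma), and against control replicate 3 alone, within slide 2, it was -1.30. The exposed groups differed from each other by at most 0.08 in mean, with 95% confidence intervals of -0.49 to 0.63 for NaHS and -0.49 to 0.64 for PPG against CS + LPS. With slide as a block, which rests on control replicate 3, Scgb1a1 was 1.14 higher with NaHS and 1.15 higher with PPG than with CS + LPS. Both passed, as did 4224 and 4120 of all detected probes in these comparisons.

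Scgb3a2, a secretoglobin of bronchiolar cells that is also called UGRP1, had control signals of 16.86, 16.47 and 17.44. The means of the exposed groups were 0.55 lower with CS + LPS, 0.66 lower with NaHS and 0.51 lower with PPG on the log2 scale, and none of these differences passed (adjusted p = 0.266, 0.292 and 0.28, limma). The highest array of each exposed group, at 16.93, 16.56 and 16.79, overlapped with the controls. Within slide 2, the difference of Scgb3a2 between the CS + LPS arrays and control replicate 3, the 1 control there, was -1.07. Among the exposed groups the means of Scgb3a2 lay between 16.26 and 16.41.

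Bpifa1, also called PLUNC or SPLUNC1, is a secreted protein that binds lipopolysaccharide and is also known to limit the sodium channel of the airway. Its signals were 4.99, 6.26 and 11.44 in the control group and 9.48, 7.68 and 6.29 in the CS + LPS group. They were 6.50, 10.64 and 11.52 in the CS + LPS + NaHS group and 15.01, 13.66 and 13.36 in the CS + LPS + PPG group. The 3 PPG arrays lay above the 9 others, while the other groups overlapped with each other over several log2 units.

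Bpifa1 rose by 6.45 with PPG against the control group (SE 1.66, adjusted p = 0.0524, limma) and by 6.19 against the CS + LPS group (SE 1.66, adjusted p = 0.178, limma). It was lower by 4.45 with NaHS than with PPG (SE 1.66, adjusted p = 0.563, limma). The differences from control were 0.26 with CS + LPS (95% confidence interval -3.40 to 3.91) and 1.99 with NaHS (-1.67 to 5.65), and that of NaHS from CS + LPS was 1.74 (-1.92 to 5.39). These intervals are wide, since the residual SD of Bpifa1 was 2.36, larger than that of 99.9% of the probes. The 2 spots of its probe differed by a median of 0.16 within an array, which is less than the spread between arrays.

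The rises of Bpifa1 with PPG passed in each of the 12 fits that left out 1 array, at 5.16 to 8.38 against control and 5.43 to 7.02 against CS + LPS. The difference between NaHS and PPG did not pass without NaHS replicate 1 (-2.93) or PPG replicate 1 (-3.95). Within slide 1, which held 2 controls, Bpifa1 was 8.38 higher with PPG than in controls (adjusted p = 0.025, limma), and the difference between NaHS and PPG was as in all arrays. With slide as a block the difference from CS + LPS was 12.0 for PPG and 7.55 for NaHS, which then passed. So did 4120 and 4224 of all detected probes in these comparisons. The values with the block rest on control replicate 3 as the link between slides. Against that array alone, within slide 2, the difference of Bpifa1 for CS + LPS was -3.62, which compares 3 arrays with 1 and says nothing of the other controls.

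Several genes of heart muscle varied widely between arrays, as Bpifa1 did. Of 9 markers of heart and skeletal muscle 7 were detected, with Myh6 (atrial myosin heavy chain) at 3.42 to 14.78 and Myl7 (atrial myosin light chain) at 5.03 to 14.85 over the controls. Ckm (muscle creatine kinase) was at 4.85 to 9.65 over the controls. The skeletal muscle genes Acta1 and Myl11 varied little, at 7.42 to 8.67 and 6.57 to 7.38 over all arrays, so the mean below follows mainly the heart genes and Ckm. Nppa and Myh2 were not detected. The mean log2 signal of the 7 genes ranged from 7.10 to 11.60 in the control group and from 9.21 to 11.11 in the CS + LPS group. On the NaHS arrays it was 7.16 to 11.27, and on the PPG arrays 10.86 to 11.40. The sum of their log2 signals was 49.7 to 81.2, 64.4 to 77.8, 50.1 to 78.9 and 76.0 to 79.8 in these groups. Over all arrays, 0 of the 7 genes passed in any comparison. In these comparisons 0.523% to 4.56% of all detected probes passed, so that 0 of 7 says little. Their median log2 differences from control were 0.47 with CS + LPS, 0.57 with NaHS and 2.21 with PPG. Without control replicate 3 they were 1.89, 1.76 and 3.66, and Myh6 passed as higher in each exposed group. Myl7 then also passed with CS + LPS and PPG, and Tnnt2, Actc1 and Ckm with PPG, which made 5 of the 7 with PPG. None of the 7 passed between exposed groups. There 418 (NaHS against CS + LPS), 497 (PPG against CS + LPS) and 134 (NaHS against PPG) of all probes passed. On control replicates 1 and 2 Myh6 was not well above background, nor were Myl7 and Ckm on control replicate 2. NaHS replicate 1 had Myh6 (4.23) and Myl7 (3.82) not well above background either, so the rise of Myh6 with NaHS was not seen on that array.

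Control replicates 1 and 2 and NaHS replicate 1, where the mean of the muscle genes was 7.10 to 7.20, had Bpifa1 at 4.99 to 6.50. Control replicate 3, CS + LPS replicate 1 and NaHS replicate 2, where it was 11.11 to 11.60, had Bpifa1 at 11.44, 9.48 and 10.64. NaHS replicate 3, at a muscle mean of 10.07, had Bpifa1 at 11.52, while CS + LPS replicates 2 and 3, at 9.43 and 9.21, had it at 7.68 and 6.29. The 3 PPG arrays, at a muscle mean of 10.86 to 11.40, had Bpifa1 at 13.36 to 15.01, above the 9 others. In a fit with the muscle mean as a covariate, Bpifa1 was 3.22 higher with PPG than in controls (SE 0.75, adjusted p = 0.0141), 4.58 higher than in the CS + LPS group (SE 0.66, adjusted p = 0.0163) and 2.26 higher with NaHS than in the CS + LPS group (SE 0.63, adjusted p = 0.153, limma). In the same fit Scgb3a1 was 2.46 higher with PPG than in controls (adjusted p = 0.0307) and 1.49 higher than in the CS + LPS group (adjusted p = 0.318, limma). The PPG differences from both groups passed with and without the covariate, and were smaller with it. The covariate was chosen after seeing the data.

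**Figure D2:**
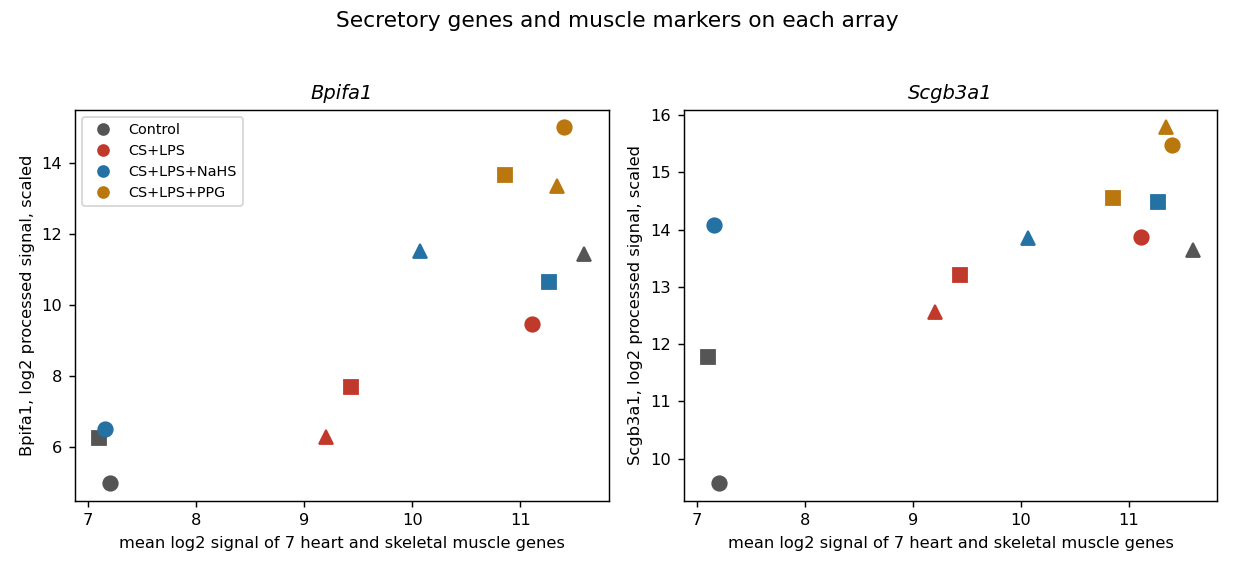
Log2 processed signal of Bpifa1 (left) and Scgb3a1 (right) on each of 12 arrays against the mean log2 signal of 7 heart and skeletal muscle genes, with colours for the groups and symbols for the replicates (circle 1, square 2, triangle 3). The 3 CS + LPS + PPG arrays have the highest Bpifa1 at a muscle mean of 10.86 to 11.40, and the 3 arrays with a muscle mean near 7 have Bpifa1 at or below 6.50.

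Bpifb1, the long relative of Bpifa1 that is made by goblet and gland cells, had control signals of 9.73, 10.93 and 12.58 and CS + LPS signals of 12.58, 10.47 and 11.14. With NaHS they were 11.94, 12.06 and 11.99, and with PPG 12.24, 11.10 and 12.63. The NaHS arrays lay close together (SD 0.06), and the arrays of the other groups were spread around them (SD 0.80 to 1.43). The differences from control were 0.32 with CS + LPS, 0.92 with NaHS and 0.92 with PPG (SE 0.69, adjusted p = 0.782, 0.496 and 0.397, limma). They were 1.07, 1.67 and 1.66 without control replicate 3, of which those with NaHS (adjusted p = 0.28) and PPG (adjusted p = 0.132, limma) passed. With PPG, Bpifb1 did not pass against CS + LPS as Bpifa1 did, with a difference from CS + LPS of 0.59 (95% confidence interval -0.94 to 2.13). With slide as a block Bpifb1 was 2.84 higher with PPG and 2.85 higher with NaHS than with CS + LPS. Both passed, as did 4120 and 4224 of all detected probes in these comparisons.

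Agr2, a disulfide isomerase of the endoplasmic reticulum that mucin-making cells need, had 10 spots on each array. Its signals were 9.66, 9.80 and 11.13 in controls, 10.77, 10.07 and 9.70 with CS + LPS, 10.25, 10.46 and 10.24 with NaHS, and 11.05, 10.49 and 11.69 with PPG. The PPG arrays lay above all NaHS arrays and overlapped with the control and CS + LPS groups. Agr2 was 0.88 higher with PPG than in controls (SE 0.42, adjusted p = 0.186) and 0.90 higher than with CS + LPS (SE 0.42, adjusted p = 0.491, limma). Neither passed. The second passed without CS + LPS replicate 1 or PPG replicate 2 (1.19 in each fit), and with slide as a block. With that block Agr2 was 2.30 higher with PPG and 1.53 higher with NaHS than with CS + LPS. Both passed, as did 4120 and 4224 of all detected probes in these comparisons. The difference of Agr2 between PPG and control was 1.35 without control replicate 3 and passed (adjusted p = 0.0644, limma).

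The mucins were poorly covered. No probe was matched to Muc5ac, a gel-forming mucin of goblet cells, or to Muc1, a mucin of the cell membrane, so they were not analysed here. The probe of Muc5b, the main gel-forming mucin of the lower airways, has a transcript ID of another database and got its name from the lists of changed probes that were deposited with the arrays. Its naming is thus not independent of its values, which are given as a description. It was not well above background on any control array, and it was on 2 CS + LPS arrays, 3 NaHS arrays and 3 PPG arrays. Muc5b signals were 3.90, 4.39 and 5.24 in controls, 6.11, 2.68 and 4.16 with CS + LPS, 5.70, 5.66 and 5.65 with NaHS, and 5.89, 4.69 and 6.61 with PPG. Against the controls, where no value was well above background, the measured mean of Muc5b was 2.24-fold higher with NaHS (adjusted p = 0.424) and 2.33-fold higher with PPG (adjusted p = 0.289, limma), and the PPG arrays overlapped with the controls. Neither difference passed, and these folds set means side by side without their error (SE 0.74 on the log2 scale). The measured mean of Muc5b differed by -0.19 between CS + LPS and control.

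Tff2, a trefoil peptide of mucus-secreting cells, was well above background only on control replicate 3, at 5.74, where the 2 spots of its probe differed by 5.10. On the other 11 arrays it was not well above background, at 1.73 to 3.09. It was therefore not detected and not among the 6 tested genes.

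Over the 6 tested genes, the counts that passed were 0 for CS + LPS against control, 1 for NaHS against control, 2 for PPG against control, 0 for NaHS against CS + LPS, 2 for PPG against CS + LPS and 1 for NaHS against PPG. The share of all detected probes that passed in the same comparisons was 4.56%, 2.67%, 4.38%, 1.7%, 2.05% and 0.523%. By limma's adjusted p, with a threshold of 0.05, 1 of the 6 genes passed, Scgb3a1 for PPG against control, where 4.64% of the probes did. In the other comparisons none of the 6 did, with shares of the probes of 2.02% for CS + LPS against control, 0.0989% for NaHS against control, 0.593% for NaHS against CS + LPS, 0.523% for PPG against CS + LPS and 0% for NaHS against PPG. For the last comparison, 1857 probes had an unadjusted p under 0.05 in limma, and 0 had an adjusted one. The comparisons with control share the control arrays and those with CS + LPS share the CS + LPS arrays, so their counts are not independent. Leaving out control replicate 3, the counts against control were 1 with CS + LPS, 3 with NaHS and 4 with PPG.

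**Figure D3:**
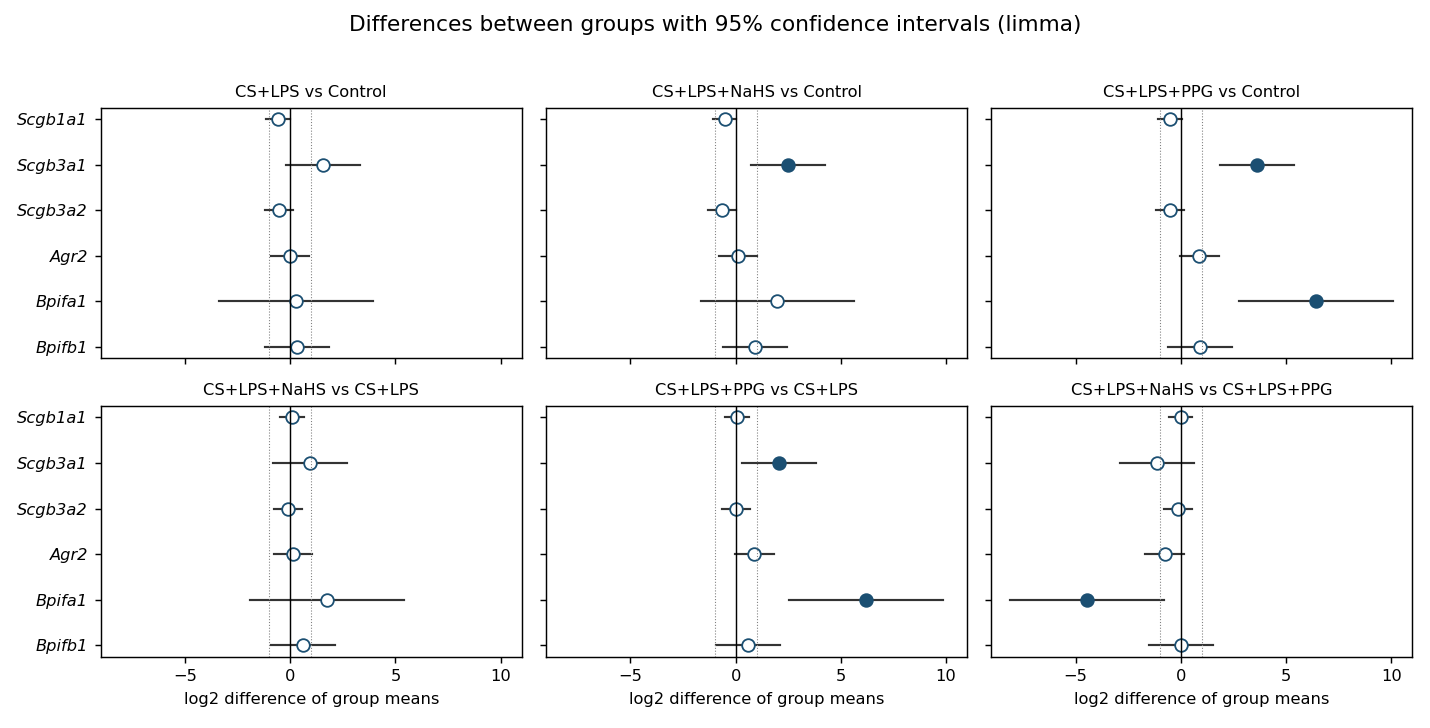
Log2 differences of group means for the 6 tested genes in the 6 comparisons, with 95% confidence intervals from limma (3 arrays a group). Filled points passed the test, with dotted lines at 2-fold. Bpifa1 and Scgb3a1 pass for PPG against both control and CS + LPS, and the intervals of Bpifa1 are the widest of the 6 genes.

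Among other secreted proteins of the airway, the iron-binding protein Lcn2 and the beta-defensins Defb4 and Defb5 rose in each exposed group against control. Lcn2 was at 12.21 to 12.43 in controls and 13.44 to 14.52 over the 9 exposed arrays, with no overlap. It rose by 1.42 with CS + LPS, 1.48 with NaHS and 1.77 with PPG (adjusted p = 0.0144, 0.036 and 0.00712, limma). Defb5 was at 6.81 to 7.38 in controls and 8.10 to 10.01 over the exposed arrays, and rose by 1.77, 2.20 and 2.24 (adjusted p = 0.0517, 0.0923 and 0.0242, limma). Defb4 rose by 1.30, 1.01 and 1.47 (adjusted p = 0.0576, 0.184 and 0.0356, limma). With PPG, the neutrophil proteins S100a8 (1.31) and S100a9 (1.32) rose too. In all, 3, 3 and 5 of the 13 detected genes of this list of 17 rose with CS + LPS, NaHS and PPG against control and 0 fell, beside 4.56%, 2.67% and 4.38% of all detected probes that passed in either direction. Their median was 0.07, 0.69 and 0.64 on the log2 scale, beside -0.04, 0.00 and -0.01 over all probes. Without control replicate 3 the counts were 2, 3 and 4, with Lcn2 and Defb5 in each. Defb4 then passed with PPG alone, and S100a8 and S100a9 no longer passed. Between exposed groups none of the 13 passed over all 12 arrays, beside 0.523% to 2.05% of all detected probes. Without control replicate 3, Hp passed as higher with PPG than with CS + LPS. Of the 10 neutrophil markers, among them Lcn2, S100a8 and S100a9, each had a higher mean in each exposed group than in the control group, and 3, 4 and 5 of them passed, or 2 in each group without control replicate 3, beside the same shares of all probes. The share of neutrophil RNA in these rises was not tested.

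**Figure D4:**
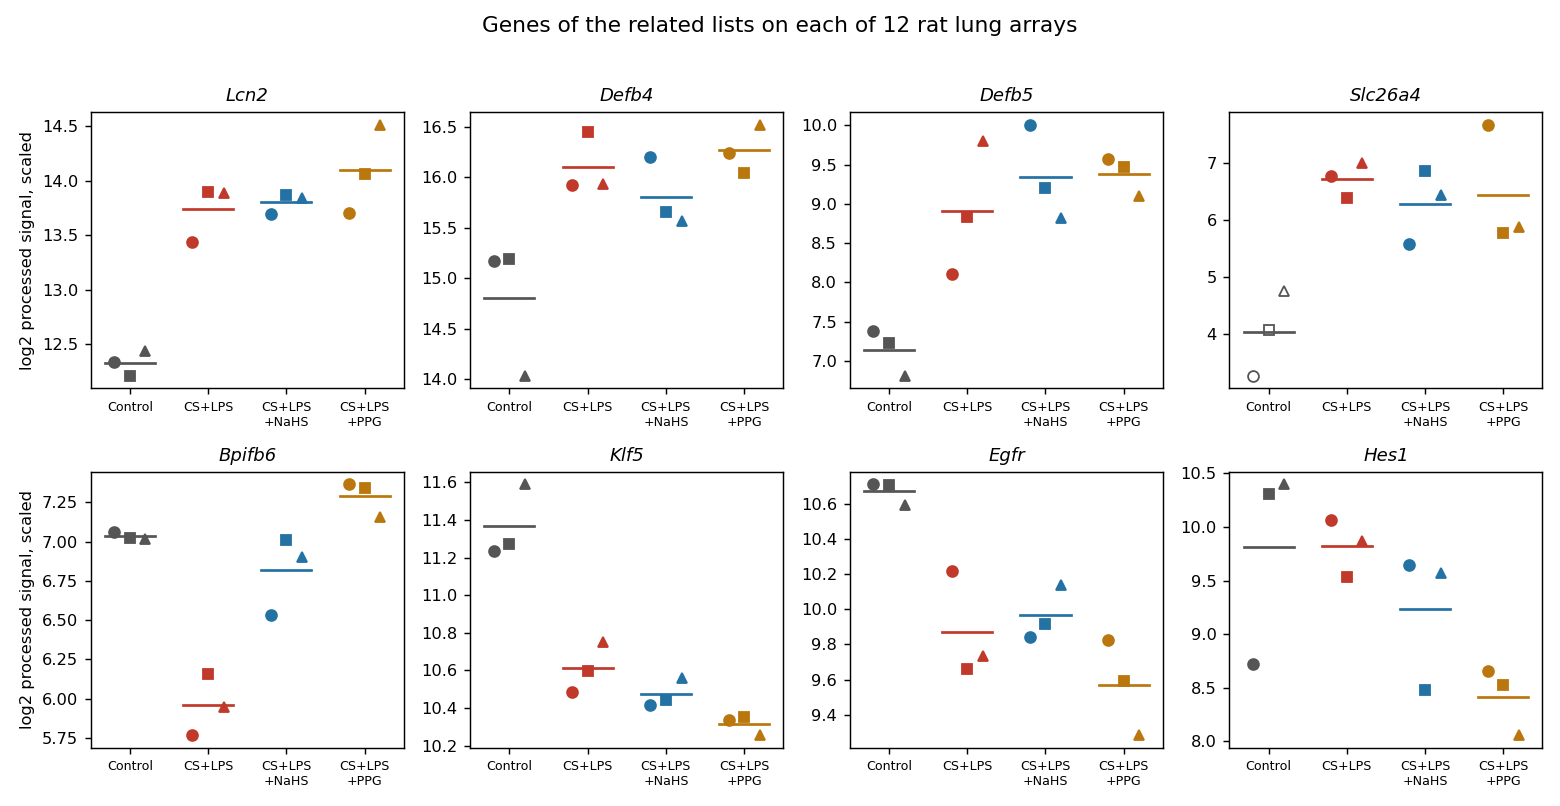
Log2 processed signal of 8 genes of the related lists on 12 arrays, drawn as for the secretory genes, with open symbols for values not well above background and a vertical scale of its own in each panel. Lcn2 and Defb5 of all exposed arrays lie above all controls, and Bpifb6 of the CS + LPS arrays lies below all other arrays.

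Of 25 genes of goblet cells and the mucus programme, 20 were detected. Slc26a4 (pendrin, an anion exchanger that mucous cells gain in inflamed airways) was not well above background on any control array, where it measured 3.27 to 4.75, and was at 5.58 to 7.69 over the exposed arrays. It was at least 6.05-fold higher with CS + LPS, 4.48-fold with NaHS and 4.98-fold with PPG (adjusted p = 0.0375, 0.135 and 0.0392, limma). With PPG, Ern2, an endoplasmic reticulum sensor of mucous cells that was well above background on 1 control array, rose by 1.32 (adjusted p = 0.136), and the epithelial factor Klf5 fell by 1.05 (adjusted p = 0.012, limma). Klf5 was also lower with CS + LPS (-0.75) and NaHS (-0.89), by less than 2-fold (adjusted p = 0.0265 and 0.0366, limma). It lay at 11.24 to 11.59 in controls and 10.26 to 10.75 over the exposed arrays, with no overlap. Sox2, a factor of airway identity, fell by 1.00 with CS + LPS (adjusted p = 0.134, limma). With control replicate 3 left out, neither Klf5 nor Sox2 passed, and Slc26a4 did in all 3 exposed groups. Ern2 then passed as higher with NaHS and with PPG than in controls, and with PPG than with CS + LPS. The medians of the list were -0.17, -0.18 and -0.02 against control, where 4.56%, 2.67% and 4.38% of all detected probes passed. Between exposed groups none of the 20 genes passed over all 12 arrays. The shares of all detected probes there were 1.7% (NaHS against CS + LPS), 2.05% (PPG against CS + LPS) and 0.523% (NaHS against PPG), so that 0 of 20 says little. Clca1, a marker of goblet cells, varied within groups, with 7.61 to 8.91 in controls and 6.37 to 12.27 with CS + LPS. Spdef, the main goblet cell factor, lay at 10.17 to 11.63 over all arrays.

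Of 29 genes of signals known to act on mucin genes 21 were detected. None passed with CS + LPS or NaHS against control, beside 4.56% and 2.67% of all detected probes. With PPG 4 of the 21 passed against control, beside 4.38% of all detected probes: the cytokine Tnf rose by 1.03, and the EGF receptor Egfr (-1.11), its ligand Ereg (-1.03) and the Notch target Hes1 (-1.40) fell against control. Adjusted p-values from limma were 0.0472, 0.0211, 0.0525 and 0.0791. Egfr was at 10.60 to 10.72 in controls and 9.28 to 9.83 with PPG, with no overlap. Egfr was also lower with CS + LPS (-0.80) and NaHS (-0.71), by less than 2-fold (adjusted p = 0.0517 and 0.141, limma). Those arrays, at 9.66 to 10.22 and 9.84 to 10.14, lay below all controls too. The difference of Hes1 between PPG and CS + LPS was -1.41 and passed (adjusted p = 0.259, limma). With control replicate 3 left out, 0 rose and 4 fell with PPG, which were Il4r, Ereg, Egfr and Hes1. The median of the list was -0.20 with CS + LPS, -0.02 with NaHS and -0.16 with PPG against control.

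Of 16 other mucins and mucin-like proteins, 6 had a probe and 5 were detected (Muc20, Emcn, Cd164, Cd34 and Podxl). None passed in any of the 6 comparisons, where 0.523% to 4.56% of all detected probes did, so that 0 of 5 says little. Emcn lay just under 2-fold, at 0.99 with CS + LPS and 0.97 with PPG against control (adjusted p = 0.104 and 0.0831, limma). Of 14 relatives of the BPI fold family 7 were detected. Bpifb6, at 7.02 to 7.06 in controls, was at 5.77 to 6.16 with CS + LPS and 7.15 to 7.37 with PPG. It fell by 1.08 with CS + LPS against control (SE 0.15, adjusted p = 0.0144) and was 1.33 higher with PPG than with CS + LPS (SE 0.15, adjusted p = 0.00288, limma). With NaHS, at 6.53 to 7.01, it was 0.86 higher than with CS + LPS (adjusted p = 0.0385, limma), which is less than 2-fold and did not pass. Both differences from CS + LPS are across slides. The other 6, Lbp, Pltp, Bpifa5, Bpifb2, Bpifb3 and Bpifb5, passed in no comparison.

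Beside the marker counts below, 4.56%, 2.67% and 4.38% of all detected probes passed with CS + LPS, NaHS and PPG against control. The shares were 2.05% for PPG against CS + LPS and 0.523% for NaHS against PPG. With CS + LPS, 2 of 10 club and 1 of 10 ciliated markers had a higher mean than in controls, with a median of -0.43 for each list. Without control replicate 3 the medians were -0.28 and -0.03. Of 10 detected club cell markers, Cyp2a3 fell by 1.54 with CS + LPS and Cyp4b1 by 1.23 with PPG against control (adjusted p = 0.162 and 0.0206, limma). The fall of Cyp2a3 was lost with control replicate 3 left out. In that fit Cyp2a3 and Hp passed as higher with PPG than with CS + LPS, and Hp as higher with NaHS and PPG than in controls. The mean log2 signal of the 10 was 12.23 to 12.79 in controls, 11.87 to 12.30 in the CS + LPS group, 12.09 to 12.24 on the NaHS arrays and 11.97 to 12.61 on the PPG arrays. Of 10 detected ciliated cell markers, Foxj1 fell by 1.10 with NaHS (adjusted p = 0.258, limma), which was lost without control replicate 3. Of 7 basal cell markers, the keratin Krt15 rose against control by 1.15 with NaHS and by 1.74 with PPG, and was 1.40 higher with PPG than with CS + LPS. The water channel Aqp3 was 2.65 higher with PPG than with CS + LPS and differed by -2.34 between NaHS and PPG (adjusted p = 0.401 and 0.566, limma). Krt14 (-1.02) and Krt17 (-1.40) fell with CS + LPS against control, as did Krt17 with PPG (-1.13). Neither Krt14 nor Krt15 with NaHS passed with control replicate 3 left out. In the remaining lists, the counts of genes that passed in any comparison were Igfbp2 of 8 alveolar type 1 markers, Lamp3 of 11 type 2 markers, Col11a2 of 5 cartilage markers, Lmod1 of 8 smooth muscle markers, 0 of the 1 gland marker, and Ptgdr2, Ccr3, Cpa3 and Mcpt1 of 12 markers of type 2 lymphocytes, eosinophils and mast cells. Against control, Igfbp2 fell in each exposed group, and with PPG Lamp3 rose while Col11a2 and Lmod1 fell. With CS + LPS, Ptgdr2 fell (-1.07) and Ccr3 (1.58), Cpa3 (1.67) and Mcpt1 (1.87) rose. Mcpt1 was lower with PPG than with CS + LPS (-2.01). With control replicate 3 left out, only Ccr3 with CS + LPS against control and Mcpt1 with PPG against CS + LPS passed among these genes. With the mean of the ciliated markers as a covariate, Bpifa1 was 7.70 higher and Scgb3a1 4.38 higher with PPG than in controls (adjusted p = 0.0321 and 0.0187, limma).

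Among the 10234 genes well above background on all 12 arrays, the signals of Bpifa1 went most closely with Fabp3 (Pearson's r = 0.91), Pus7 (0.90), Cfd (0.89), Casq2 (0.88) and Tnnc1 (0.88). Fabp3, Casq2 and Tnnc1 are genes of heart muscle, and Cfd is a gene of fat cells. Scgb3a1 went most closely with Fabp3 (0.89), Tuba4a (0.87), Prss30 (0.85), Klrc3 (0.84) and Cfd (0.83). Scgb1a1 went with Shbg, Ankrd37, E4f1, Ceacam9 and Ubtf, all at 0.95, and control replicate 3 was the array with the highest Scgb1a1. These correlations are descriptions over 12 arrays that share groups, slides and scaling.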

How the data were processed

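Whole-lung RNA of 12 rats was labelled with Cy3 and hybridised to single-colour Agilent rat arrays, 1 array per rat, with 62976 spots each. NaHS was given at 14 μmol/kg and PPG at 37.5 mg/kg, by intraperitoneal injection before exposure. The authors deposited the scanner output of Agilent Feature Extraction (version 10.7 in the submitters' processing notes), in which each spot has a background-subtracted processed signal, a fluorescence intensity. The arrays were designed on the build rn4, and promoters came from RefSeq on GRCr8. Deposited lists of changed probes, which hold fold changes (a ratio), p-values and log2 values of the authors' own comparisons, were used only to name probes.

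Control and outlier spots were left out, spots of a probe were averaged, and the log2 signal was scaled to the 75th percentile of each array. Names came from RefSeq accessions (17514 of 30367 probes) or from the lists alone (194 probes), and 12659 probes had none. Detected probes (21239) were fitted in 1 model over the 4 groups with lmFit and eBayes of limma 3.58.1 in R 4.3.3 (data.table version 1.17.8), and p-values were adjusted by Benjamini-Hochberg over all of them. The script was tested on simulated data. Replicates were separate rats, so p-values measure the spread between 3 rats a group. Replicate numbers did not pair the arrays. A gene was named if it was a member, belonged to 1 of 5 lists of related genes, or was among the 5 genes most like Scgb3a1, Bpifa1 or Scgb1a1. Genes of the cell type lists were named because they passed, after their values were seen. The members and lists were chosen with earlier results of these data known. Alternatives were quantile normalization, another percentile, normexp background correction, other filters, slide or replicate number as a block, arrays of 1 slide, an adjusted p, the methods' t-test, a fit of the compared groups alone, leaving out each array, and muscle or ciliated markers as a covariate.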

Additional observations from a re-analysis of the deposited data

How the results depend on the processing

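Quantile normalization, the other percentile, normexp, outlier spots kept and the stricter filter on dim probes left the counts of secretory genes that passed as they were. With no filter on dim probes, Tff2 was added to the 6 tested genes, and it passed as lower with CS + LPS than in controls. It was well above background on control replicate 3 alone, so this rests on that array. With slide as a block, the counts were 2 (CS + LPS), 3 (NaHS) and 4 (PPG) against control. Against CS + LPS they were 5 for NaHS and 5 for PPG, where Scgb3a2 alone did not pass. Of all detected probes, 4831, 412 and 660 passed against control with that block, beside 969, 567 and 930 without it. Against CS + LPS, 4224 (NaHS) and 4120 (PPG) probes did, beside 361 and 435, so that 5 of 6 says little of these genes in particular. Within slide 1 the counts of secretory genes were 3 for NaHS and 4 for PPG against control. Control replicate 3 is the only control on slide 2, so no count is given there. The difference of Bpifa1 for CS + LPS was reversed to -3.62 within that slide. No slide held both CS + LPS and a treated group. With only the groups compared in the fit, 2 genes passed for NaHS against PPG. By the methods' t-test the count was 0 for NaHS against control and 0 for NaHS against PPG. With an adjusted p under 0.05 it was 0 for NaHS and 1 for PPG against control, 0 for PPG against CS + LPS and 0 for NaHS against PPG. Leaving out 1 array at a time gave 0 to 1 (CS + LPS), 1 to 3 (NaHS) and 2 to 4 (PPG) against control, 1 to 3 for PPG against CS + LPS and 0 to 2 for NaHS against PPG.

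With the replicate block, the counts were 0, 1, 2, 0, 2 and 1, as without it, while the adjusted p of Scgb3a1 for PPG against control went from 0.0397 to 0.0745 in limma. Arrays with the same replicate number did not deviate together (correlations of -0.31 to 0.14 over 18 pairs). In fits chosen after seeing the data, muscle markers as a covariate gave 1 gene for NaHS against CS + LPS, and ciliated markers gave 1 (CS + LPS), 2 (NaHS) and 4 (PPG) against control and 2 for NaHS against PPG. The cause of these changes was not tested. Each tested gene had 1 detected probe, so no other probe could stand for it. Of the values under the alternatives, 826 kept their direction and side of the threshold. Another 47 changed direction without passing in either fit. In the same direction, 37 passed only under the alternative and 13 no longer passed. The remaining 1 changed direction and passed in 1 of the fits. Over all probes, counts moved most with slide as a block, from 969 to 4831 for CS + LPS against control, 361 to 4224 for NaHS and 435 to 4120 for PPG against CS + LPS. With normexp the 6 counts were 444, 254, 384, 96, 122 and 59, in place of 969, 567, 930, 361, 435 and 111, and with no filter on dim probes they were 2069, 1258, 1311, 654, 852 and 277. The methods' t-test gave 443, 279, 498 and 66 for the comparisons with control and for NaHS against PPG, and leaving out 1 array gave 612 to 1790, 412 to 1228 and 660 to 1602 for the comparisons with control. Signals near background limit Muc5b and Tff2.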
